A study of Mus musculus with 6 samples.

Results

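The respiratory chain of the inner mitochondrial membrane was followed in murine small cell lung cancer (SCLC) cells through the genes that encode it. Members were taken by symbol from the deposited table, as the rows that begin with Nduf (followed by a, b, c, s or v), Uqcr, Cox4 to Cox8 or Atp5, the 4 succinate dehydrogenase genes Sdha to Sdhd, and the protein genes of mitochondrial DNA (mt-Nd, mt-Co, mt-Cytb and mt-Atp). This gave 104 of the 20273 rows. Of these, 77 were nuclear genes of subunits, with 36 for complex I, 4 for complex II, 8 for complex III, 14 for complex IV and 15 for complex V. A further 13 were mitochondrially encoded subunits, 7 of complex I, 1 of complex III, 3 of complex IV and 2 of complex V. The remaining members were 8 assembly factors of complex I (Ndufaf1 to Ndufaf8), the supercomplex factor Cox7a2l, Atp5s, which is no subunit of complex V, and 4 pseudogenes.

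The study deposited 6 bulk RNA libraries of murine SCLC cells in culture. In 3 of them (ERBB2 KO 1 to 3) Erbb2, which encodes a receptor tyrosine kinase, had been targeted by transfecting a Cas9 construct, followed by puromycin selection and sorting of single clones. The other 3 (WT 1 to 3) were unedited cells, and both groups were grown in the same RPMI medium with 10% serum. The paper derived its murine SCLC lines from lung tumors or liver metastasis of mice with conditional Rb1 and Trp53 deletion, on a C57BL/6 background. It does not state which line gave these libraries. The study calls the libraries of a group biological replicates. Whether they were separate clones or cultures is not in the labels, so p-values measure only the spread between these libraries. Levels are listed by replicate number, from 1 to 3 in each group.

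The chain passes electrons from NADH (complex I) or succinate (complex II) over ubiquinone to complex III, then by cytochrome c to complex IV, which reduces oxygen, and complex V uses the proton gradient so built to make ATP. Complex II is encoded wholly in the nucleus, whereas the other complexes are put together from subunits of both genomes. Mitochondrial DNA is transcribed on both strands into long precursors that are cut at the tRNAs between the genes, while each nuclear subunit gene has its own promoter.

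Library totals read back from the deposited values lay between 8927461 and 11792342 reads in ERBB2 KO and between 10983851 and 13255671 reads in WT, so that 3 reads were worth between 0.226 and 0.336 CPM. In CPM a gene's reads are divided by those of its whole library and multiplied by the same constant everywhere. The libraries did not group by genotype alone. Over the genes tested, WT 1 correlated more closely with ERBB2 KO 2 and ERBB2 KO 3 (Pearson's r of log2 values 0.96 and 0.95) than with WT 2 and WT 3 (0.92 and 0.93), and ERBB2 KO 1 correlated with each other library at between 0.88 and 0.91. Xist, the noncoding RNA of the inactive X chromosome, was at 0.112, 0.0848 and 0 CPM in ERBB2 KO, against 0, 208 and 178 CPM in WT. Erbb2 itself was at 12.1, 6.19 and 2.80 CPM in ERBB2 KO, against 10.7, 3.95 and 6.64 CPM in WT, and reads outside an edit do not check a knockout. The paper reports that the knockout was checked on protein, by western blot and flow cytometry. No label states that all 6 come from 1 parental line. Whether another line or an exchanged library is among them was not tested, so each difference below is between the groups as labelled. Of the neuroendocrine markers Ncam1 was found in each library (121 to 353 CPM in ERBB2 KO and 277 to 1253 CPM in WT), Uchl1 was at 0 in each ERBB2 KO library and at 0.546 to 26.6 CPM in WT, and Syp and Chgb did not reach 1 CPM anywhere. The epithelial keratins Krt8 and Krt18 were expressed in each library, with Cdh1 below 0.4 CPM in all but WT 3, at 10.0 CPM. The 5 epithelial markers in the table, Epcam not among them, summed to 1407, 1799 and 1940 CPM in ERBB2 KO. In WT they summed to 2417, 741 and 783 CPM, with WT 1 the highest of all. The 3 leukocyte markers in the table summed to 31.7, 5.43 and 7.06 CPM in ERBB2 KO, against 2.82, 1.61 and 1.58 CPM in WT, with the defining marker Ptprc at no more than 0.415 CPM. The 5 fibroblast markers summed to 305, 80.1 and 48.9 CPM in ERBB2 KO, against 51.5, 57.0 and 229 CPM in WT. Their part in the results on the chain was not tested. In bulk samples, fewer cells that express a gene and less of its RNA per cell cannot be told apart.

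Summed over genes, nuclear subunits took nearly the same share of the reads in each library, whereas the mitochondrially encoded subunits varied from library to library without following genotype. The 77 nuclear subunits held 1.51%, 1.51% and 1.48% of the reads in ERBB2 KO 1 to 3, against 1.50%, 1.41% and 1.50% in WT 1 to 3. Their means of 1.50 ± 0.0148% and 1.47 ± 0.0518% (SD, n = 3 each) stood in a ratio of 1.02. The 13 mitochondrially encoded subunits held 2.41%, 3.42% and 3.68% in ERBB2 KO, against 3.28%, 2.06% and 2.52% in WT, which gave 3.17 ± 0.668% and 2.62 ± 0.616% and a ratio of 1.21. The groups overlapped in both sums. In the mitochondrially encoded sum ERBB2 KO 1 lay near WT 3, and WT 1 near the other ERBB2 KO libraries. Mitochondrially encoded over nuclear subunit reads, a ratio of read shares without correction for gene length, came to 1.60, 2.26 and 2.48 in ERBB2 KO, against 2.19, 1.46 and 1.68 in WT. The 2 mitochondrial ribosomal RNAs, which share the precursor of most mitochondrial protein genes, held 1.51%, 1.60% and 1.90% in ERBB2 KO, against 1.52%, 1.07% and 1.34% in WT.

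**Figure D1:**
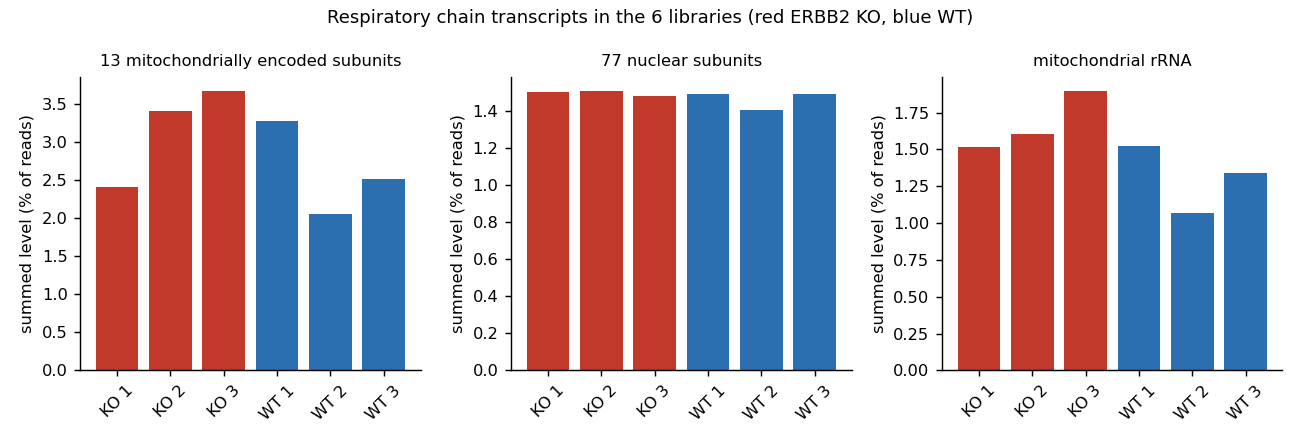
Share of reads (%) in each library for the 13 mitochondrially encoded subunits, the 77 nuclear subunits and the mitochondrial ribosomal RNAs, 1 bar per library (red, ERBB2 KO; blue, WT). The nuclear bars lie between 1.41% and 1.51%, while the mitochondrially encoded bars span 2.41% to 3.68% in ERBB2 KO and 2.06% to 3.28% in WT.

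By complex, the nuclear subunits of complexes I and III were the sums whose groups did not overlap. Complex I held 0.438%, 0.443% and 0.437% of the reads in ERBB2 KO, against 0.437%, 0.369% and 0.423% in WT, so the lowest ERBB2 KO and the highest WT library were almost level. Complex III held 0.144%, 0.164% and 0.161% in ERBB2 KO, against 0.143%, 0.132% and 0.143% in WT, with ERBB2 KO 1 and WT 1 again almost level. Complexes II, IV and V overlapped between the groups, with ratios of the means of 0.867, 0.951 and 1.01.

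Gene by gene, levels were compared on the log2(CPM + 1) scale with limma, as ERBB2 KO minus WT and with Benjamini-Hochberg adjustment over all 11803 genes that reached 1 CPM in 3 or more libraries. Of the members, 98 passed that filter. The 6 that did not were the muscle isoform Cox7a1 (at most 0.784 CPM), Cox7b2 (at most 0.170 CPM), and the pseudogenes Uqcrh-ps1, Atp5l-ps1, Atp5l2-ps and Atp5c1-ps. No member passed an adjusted p of 0.05 (0 of 98, with 0.0% of all genes tested), and their lowest adjusted p was 0.321. At an unadjusted p under 0.05 there were 12 members (12.2%), 8 with the higher mean in ERBB2 KO and 4 with the lower, beside 13.2% of all genes tested (5.96% and 7.27%). The groups did not overlap for 22 members (22.4%), 13 with ERBB2 KO above and 9 with ERBB2 KO below, beside 19.4% of all genes tested (8.76% and 10.6%). Both shares were near the background. With limma voom on the recovered reads 0 genes passed as well, and 1553 genes, 11 of them members, had an unadjusted p under 0.05.

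The median log2 difference was 0.068 over the 75 nuclear subunits tested and 0.25 over the 13 mitochondrially encoded subunits, beside -0.039 over all genes tested. Among nuclear subunits it was 0.075 for complex I, -0.092 for complex II, -0.010 for complex III, -0.15 for complex IV and 0.036 for complex V. With 1 library left out in turn, the median took both signs for complex I (-0.0076 to 0.16), complex III (-0.078 to 0.039) and complex V (-0.037 to 0.060), and lay between -0.20 and -0.065 for complex II and between -0.33 and -0.055 for complex IV. Within each of these complexes members differed in both directions.

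**Figure D2:**
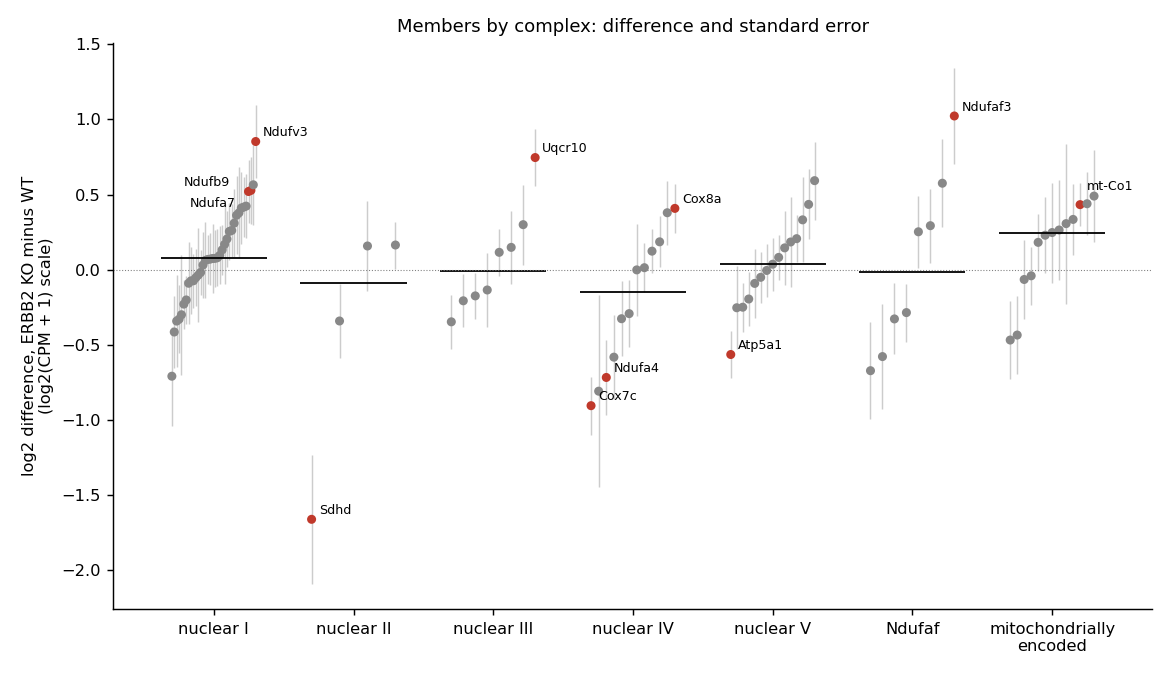
Log2 difference (ERBB2 KO minus WT, log2(CPM + 1) scale) of each tested subunit and complex I assembly factor (Ndufaf) with its standard error, by complex and ordered by size, with the median of each group as a black line. Those with an unadjusted p under 0.05 are red and named, from Sdhd at -1.66 to Ndufaf3 at 1.02, and the other points lie between -0.81 and 0.59.

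Among the mitochondrially encoded subunits, 9 of 13 had a positive and 4 a negative log2 difference, beside 5529 positive of all 11803 genes tested. An unadjusted p under 0.05 by limma was found for 1 (7.69%, beside 13.2% of all genes tested). That gene was mt-Co1, the catalytic subunit of complex IV, at 556, 525 and 547 CPM in ERBB2 KO, against 422, 368 and 418 CPM in WT. The 3 ERBB2 KO libraries lay above the 3 WT libraries (means 543 ± 15.6 CPM in ERBB2 KO and 402 ± 30.4 CPM in WT, SD, n = 3 each), with a log2 difference of 0.43 ± 0.14 (SE, limma adjusted p = 0.350). The other catalytic-core genes of complex IV overlapped between the groups. For mt-Co2, which takes electrons from cytochrome c, the levels were 2643, 3167 and 4193 CPM in ERBB2 KO, against 3496, 1724 and 2103 CPM in WT. For mt-Co3 they were 2410.0, 3215 and 3419.5 CPM in ERBB2 KO, against 2760.4, 2452 and 2683 CPM in WT. WT 1 was above ERBB2 KO 1 for both.

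For 3 of the 7 complex I genes of mitochondrial DNA, mt-Nd1, mt-Nd2 and mt-Nd4, the highest levels were in ERBB2 KO 2, ERBB2 KO 3 and WT 1. Levels of mt-Nd1 were 2803, 3643 and 3936 CPM in ERBB2 KO, against 3501, 2185 and 2622 CPM in WT. For mt-Nd2 they were 3479, 5289 and 6655 CPM in ERBB2 KO, against 5598, 2853 and 4429.9 CPM in WT. For mt-Nd4 they were 3427, 6820.0 and 6084 CPM in ERBB2 KO, against 6019, 3270.2 and 4324 CPM in WT. All 3 encode proton-pumping or adjoining parts of the membrane arm, and their groups overlapped, with 95% intervals of the log2 difference of -0.22 to 0.88, -0.51 to 1.04 and -0.53 to 1.03. The same 3 libraries were highest for mt-Cytb, the heme-binding core of complex III, at 2666, 3693 and 4302 CPM in ERBB2 KO, against 3798, 2441 and 2839 CPM in WT (log2 difference 0.23, 95% interval -0.36 to 0.82).

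A pair of complex I genes went the other way. The level of mt-Nd6, the protein gene read from the opposite strand to the other 12, was 249, 475 and 444 CPM in ERBB2 KO, against 489.5, 517 and 552 CPM in WT. Each ERBB2 KO library lay below each WT library, and ERBB2 KO 1 lowest, with a log2 difference of -0.47 ± 0.26 (SE, limma adjusted p = 0.454). The level of mt-Nd3 was 431, 769 and 814 CPM in ERBB2 KO, against 916, 877 and 831 CPM in WT, again without overlap (log2 difference -0.44 ± 0.26, adjusted p = 0.480). Without ERBB2 KO 1 the differences were -0.18 for mt-Nd6 and -0.14 for mt-Nd3. For mt-Nd5, whose end overlaps mt-Nd6 by 14 bases on the other strand, levels were 235, 332 and 337 CPM in ERBB2 KO and 297, 286 and 338 CPM in WT, and its log2 difference of -0.041 changed sign with the scaling (0.0080 after quantile normalization). The sources used here do not say whether counting used strand, and reads of the overlap cannot otherwise be told apart.

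The smallest mitochondrial genes behaved less evenly. Levels of mt-Nd4l, which shares 7 bases with mt-Nd4 and a mature transcript with it, were 22.5, 17.4 and 6.96 CPM in ERBB2 KO, against 6.10, 11.0 and 20.4 CPM in WT, a 3.69-fold span over libraries that followed neither genotype nor mt-Nd4. Complex V has mt-Atp6, the proton channel, at 5137, 6134 and 5927 CPM in ERBB2 KO, against 5380.4, 3526 and 3954 CPM in WT, where WT 1 lay among the ERBB2 KO libraries (log2 difference 0.44 ± 0.21, adjusted p = 0.412). Its partner mt-Atp8, which overlaps it by 43 bases in the same transcript, was at 54.4, 101 and 89.4 CPM in ERBB2 KO, against 92.8, 73.5 and 83.1 CPM in WT (log2 difference -0.066, 95% interval -0.68 to 0.55). Both mt-Nd4l and mt-Atp8 were far below the longer gene of their transcript. How reads were assigned within these pairs is not given in the sources used here, and its part in these levels was not tested. The RefSeq gene table also gives mt-Atp6 as a synonym of a pseudogene on chromosome 1, and how the authors counted reads that match both is not given in the sources used here. Over the 13 genes, the lowest library was WT 2 for 7, ERBB2 KO 1 for 5 and WT 1 for 1.

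**Figure D3:**
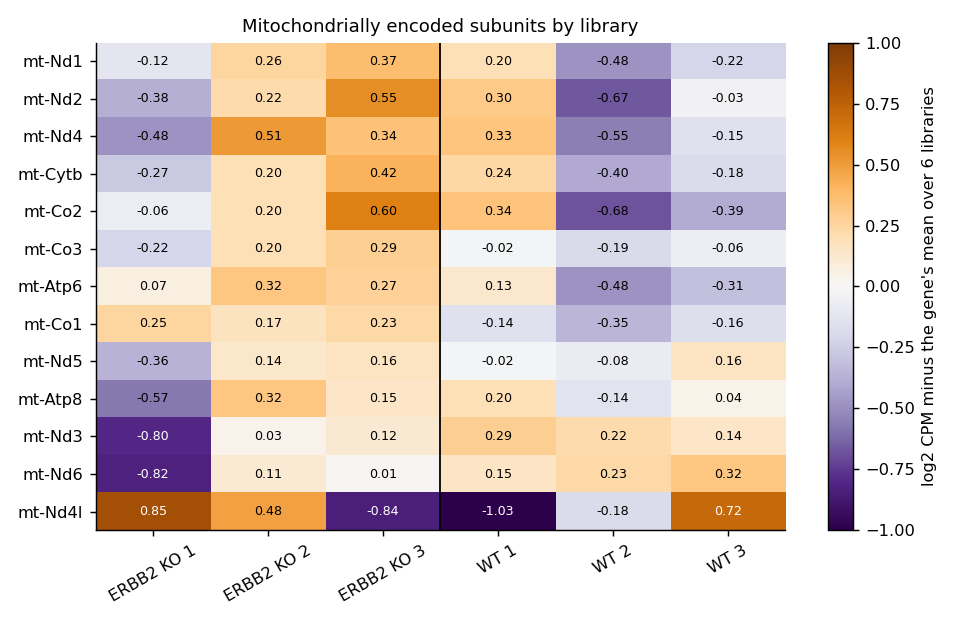
Level of the 13 mitochondrially encoded subunits in each library, as log2 CPM minus the mean of that gene over the 6 libraries (orange above, purple below), with ERBB2 KO left and WT right of the black line. The first 6 rows (mt-Nd1 to mt-Co3) are below their mean in ERBB2 KO 1, WT 2 and WT 3, mt-Co1 is positive in each ERBB2 KO library and negative in each WT library, and mt-Nd3 and mt-Nd6 are lowest in ERBB2 KO 1.

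Nuclear complex I subunits moved in both directions, and their counts were near those over all genes. Of the 36 genes, 23 had a positive log2 difference. An unadjusted p under 0.05 was found for 3 (8.33%, beside 13.2% of all genes tested), all with the higher mean in ERBB2 KO. The groups did not overlap for 5 (13.9%, beside 19.4%), again all with ERBB2 KO above. The largest difference was that of Ndufv3, an accessory subunit of the NADH-oxidising module (GRCm38.p6 chromosome 17, 31520115 to 31531326). Its levels were 136, 77.9 and 101 CPM in ERBB2 KO, against 56.8, 49.1 and 63.5 CPM in WT, with means of 105 ± 29.2 CPM in ERBB2 KO and 56.5 ± 7.19 CPM in WT (SD, n = 3 each), 1.86-fold in ERBB2 KO. The groups did not overlap, and ERBB2 KO 1 was highest (log2 difference 0.85 ± 0.24, SE, limma adjusted p = 0.328). Ndufb9, an accessory subunit of the membrane arm, was at 245, 242 and 285 CPM in ERBB2 KO, against 227, 139 and 181 CPM in WT, without overlap (log2 difference 0.52 ± 0.21, adjusted p = 0.365). Ndufa7, an accessory subunit of the matrix arm, was at 178, 177 and 154 CPM in ERBB2 KO, against 155, 91.1 and 114 CPM in WT, where WT 1 fell among the ERBB2 KO values (log2 difference 0.53 ± 0.22, adjusted p = 0.375). The accessory subunits Ndufa6 and Ndufa8 also lay wholly above WT. Ndufa6 was at 253, 168 and 179 CPM in ERBB2 KO and 161, 125 and 156 CPM in WT, and Ndufa8 at 152, 146 and 156 CPM in ERBB2 KO and 136, 103 and 142 CPM in WT.

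The 7 core subunits, which carry the flavin and the iron-sulfur clusters, had a median log2 difference of 0.17. Ndufs8, an iron-sulfur subunit, was at 74.7, 96.9 and 85.2 CPM in ERBB2 KO, against 82.7, 43.7 and 51.8 CPM in WT, with WT 1 inside the ERBB2 KO range (log2 difference 0.56 ± 0.26, adjusted p = 0.404). Ndufv1, which binds NADH and flavin, was at 99.4, 171 and 127 CPM in ERBB2 KO and 126, 80.3 and 99.2 CPM in WT. Ndufs7, which holds the last iron-sulfur cluster before ubiquinone, was at 94.0, 50.3 and 62.7 CPM in ERBB2 KO and 71.0, 55.7 and 52.6 CPM in WT. Both overlapped between the groups. The steadiest member of all was Ndufv2, another subunit of the NADH module, whose highest library was 1.08-fold its lowest (118, 110.5 and 115 CPM in ERBB2 KO and 114, 119.8 and 115 CPM in WT, log2 difference -0.019, 95% interval -0.36 to 0.33).

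The assembly factors of complex I split evenly, with 4 of 8 positive and a median log2 difference of -0.017. Ndufaf3, which works on the ubiquinone-binding module, had the largest positive difference of any member, at 10.8, 8.99 and 8.52 CPM in ERBB2 KO, against 5.37, 2.50 and 4.98 CPM in WT and 2.20-fold in the mean. The groups did not overlap (log2 difference 1.02 ± 0.32, limma adjusted p = 0.341), though the values rested on only 96, 106 and 82 reads in ERBB2 KO and 59, 31 and 66 reads in WT. Its binding partner Ndufaf4 was at 32.1, 68.3 and 76.5 CPM in ERBB2 KO and 66.6, 100.4 and 85.6 CPM in WT, with overlap (log2 difference -0.58, 95% interval -1.40 to 0.24). Ndufaf1, which acts on the membrane arm, was at 3.25, 3.73 and 4.15 CPM in ERBB2 KO, against 4.19, 7.17 and 8.90 CPM in WT, without overlap and with ERBB2 KO below (log2 difference -0.67 ± 0.32, adjusted p = 0.410). Ndufaf8 was at 75.0, 98.2 and 70.5 CPM in ERBB2 KO and 74.6, 35.7 and 57.9 CPM in WT, with overlap.

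Complex II held the largest difference of the chain, at a low level of expression. Sdhd, which with Sdhc anchors the enzyme in the membrane and forms its ubiquinone site (GRCm38.p6 chromosome 9, 50596340 to 50603849), was at 1.68, 1.27 and 1.87 CPM in ERBB2 KO, against 8.47, 12.1 and 3.47 CPM in WT. These levels came from 15, 15 and 18 reads in ERBB2 KO and 93, 150 and 46 reads in WT. Each ERBB2 KO library lay below each WT library, the ERBB2 KO values were close together, and the WT values were spread widely (means 1.61 ± 0.305 CPM in ERBB2 KO and 8.01 ± 4.33 CPM in WT, SD, n = 3 each). The mean in ERBB2 KO was 0.201 times that in WT, with a log2 difference of -1.66 ± 0.43 (SE, limma adjusted p = 0.321), and between -2.10 and -1.33 when 1 library was left out. The other anchor subunit Sdhc was at 18.8, 33.2 and 29.2 CPM in ERBB2 KO, against 31.5, 19.0 and 21.7 CPM in WT, with overlap (95% interval -0.54 to 0.85). Sdhb, the iron-sulfur subunit, was at 202, 159 and 138 CPM in ERBB2 KO, against 156, 258 and 225 CPM in WT, where WT 2 and WT 3 were the highest. Sdha, the flavoprotein that oxidises succinate, was at 81.2, 75.2 and 72.4 CPM in ERBB2 KO, against 66.9, 68.2 and 68.6 CPM in WT, without overlap but within 1.21-fold over all libraries (log2 difference 0.16, adjusted p = 0.654).

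Since nuclear subunit genes are each read from their own promoter, the RefSeq windows of GRCm38.p6 (250 bases before to 50 after the start) were searched on both strands for 3 motifs of factors known to act on such genes, NRF1 (GCGCATGC), GABPA (CCGGAAG) and YY1 (ATGGCGGC). Of 70 windows of 65 nuclear subunit genes, 10 (14.3%) held the NRF1 letters, beside 2.71% of all 32851 windows and 5.39% of the windows of genes tested here. For GABPA the counts were 16 windows (22.9%), beside 8.86% and 18.9%, and for YY1 7 windows (10.0%), beside 2.24% and 5.15%. At least 1 of the 3 was found in 40.0% of the windows, beside 26.7% of the windows of genes tested. A match is a description of the letters and not of a bound site. The 100 bases before the start are shown for the pair of complex II genes that stood furthest below WT in the mean, written 5′ to 3′ on the strand of the gene with the match in capitals. Sdhd (chr9:50603850-50603949, minus strand) has the GABPA letters, read on the opposite strand, from position -46 counted back from the start. Sdhb (chr4:140961171-140961270, plus strand) has the NRF1 letters, again on the opposite strand, from position -54.
Sdhd: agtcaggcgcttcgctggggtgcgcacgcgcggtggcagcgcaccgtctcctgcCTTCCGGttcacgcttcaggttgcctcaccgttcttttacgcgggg
Sdhb: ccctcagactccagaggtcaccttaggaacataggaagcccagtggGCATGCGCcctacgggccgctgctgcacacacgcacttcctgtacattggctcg

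In complex III, 1 small subunit stood out. Uqcr10, which sits beside cytochrome c1 (GRCm38.p6 chromosome 11, 4701968 to 4704344), was at 304, 316 and 325 CPM in ERBB2 KO, against 217, 147 and 206 CPM in WT. The ERBB2 KO libraries were within a narrow range and all above WT (means 315 ± 10.2 CPM in ERBB2 KO and 190.0 ± 37.6 CPM in WT, SD, n = 3 each), 1.66-fold in the mean, with a log2 difference of 0.75 ± 0.19 (SE, limma adjusted p = 0.321). Uqcrfs1, the Rieske iron-sulfur protein that hands electrons on, went the other way at 72.9, 81.7 and 99.4 CPM in ERBB2 KO, against 114, 105 and 102 CPM in WT, without overlap (log2 difference -0.35 ± 0.18, adjusted p = 0.429). The core protein Uqcrc2 was at 106, 111 and 120.1 CPM in ERBB2 KO and 117, 132 and 132 CPM in WT, with overlap. The small subunit Uqcrb was at 129, 131 and 169.9 CPM in ERBB2 KO and 165, 177 and 152 CPM in WT, also with overlap. Of the 8 genes 4 had a positive and 4 a negative log2 difference.

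Complex IV had members at both ends. Cox7c, a small membrane subunit (GRCm38.p6 chromosome 13, 86044798 to 86046795), had the smallest unadjusted p of the members (0.00210 by limma, adjusted p = 0.321). Its levels were 174, 201 and 189.8 CPM in ERBB2 KO, against 421, 374 and 279.6 CPM in WT. The groups were well apart, with the highest ERBB2 KO library at 201 and the lowest WT library at 280 CPM, and the ERBB2 KO mean was 0.526 times the WT mean (log2 difference -0.91 ± 0.19, SE, 95% interval -1.36 to -0.45). Ndufa4, first assigned to complex I and now counted with complex IV, was at 60.6, 80.2 and 99.4 CPM in ERBB2 KO, against 144, 149.9 and 101 CPM in WT, with ERBB2 KO 3 and WT 3 almost level (log2 difference -0.72 ± 0.25, adjusted p = 0.350). Cox5a, a subunit on the matrix side, was at 373, 235 and 292 CPM in ERBB2 KO, against 304, 546 and 519 CPM in WT, where WT 1 fell among the ERBB2 KO values (log2 difference -0.58 ± 0.28, adjusted p = 0.412). In the opposite direction, Cox8a, another small membrane subunit, was at 513, 642 and 586 CPM in ERBB2 KO, against 483, 397 and 429.9 CPM in WT, without overlap (log2 difference 0.41 ± 0.16, adjusted p = 0.361).

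The promoters of the member with the smallest p below WT and of the member with the smallest p above WT are shown in the same way, Cox7c (chr13:86046796-86046895, minus strand) and Uqcr10 (chr11:4704345-4704444, minus strand). Neither window held any of the 3 motifs, which says only that these letters are not in it.
Cox7c: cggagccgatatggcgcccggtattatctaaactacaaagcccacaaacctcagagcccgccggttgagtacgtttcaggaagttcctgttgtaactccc
Uqcr10: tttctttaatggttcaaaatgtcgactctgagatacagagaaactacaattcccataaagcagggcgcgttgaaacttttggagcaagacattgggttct

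Isoform pairs of complex IV were read next. The ubiquitous Cox6a1 was at 251, 298 and 299 CPM in ERBB2 KO and 273, 257 and 311 CPM in WT (log2 difference 0.013, 95% interval -0.37 to 0.39). Its muscle isoform Cox6a2 was near the detection limit in part of the libraries, at 0.224, 0.424 and 1.35 CPM in ERBB2 KO and 0.0910, 2.34 and 5.05 CPM in WT, from 1 to 67 reads. Of the striated muscle markers, Tnnt2 was at 24.9, 44.9 and 62.6 CPM in ERBB2 KO and 22.1, 32.0 and 76.3 CPM in WT, and Acta1 and Tnnt3 were below 1.3 CPM. Their part in the level of Cox6a2 was not tested. Cox7a2 was at 320.1, 231 and 209 CPM in ERBB2 KO and 245, 409.8 and 304 CPM in WT, with overlap. Cox7a2l, a related protein that links complexes III and IV into supercomplexes, was at 331, 244 and 303 CPM in ERBB2 KO, against 187, 191 and 215 CPM in WT, without overlap and 1.48-fold in the mean (log2 difference 0.56 ± 0.17, limma adjusted p = 0.345). Cox4i1, the main nuclear regulatory subunit, was at 325, 207 and 225 CPM in ERBB2 KO and 272, 283 and 362 CPM in WT (log2 difference -0.29, 95% interval -0.82 to 0.23). The isoforms Cox4i2, Cox8b and Ndufa4l2 have no row under these symbols in the deposited data and so were not analysed here.

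**Figure D4:**
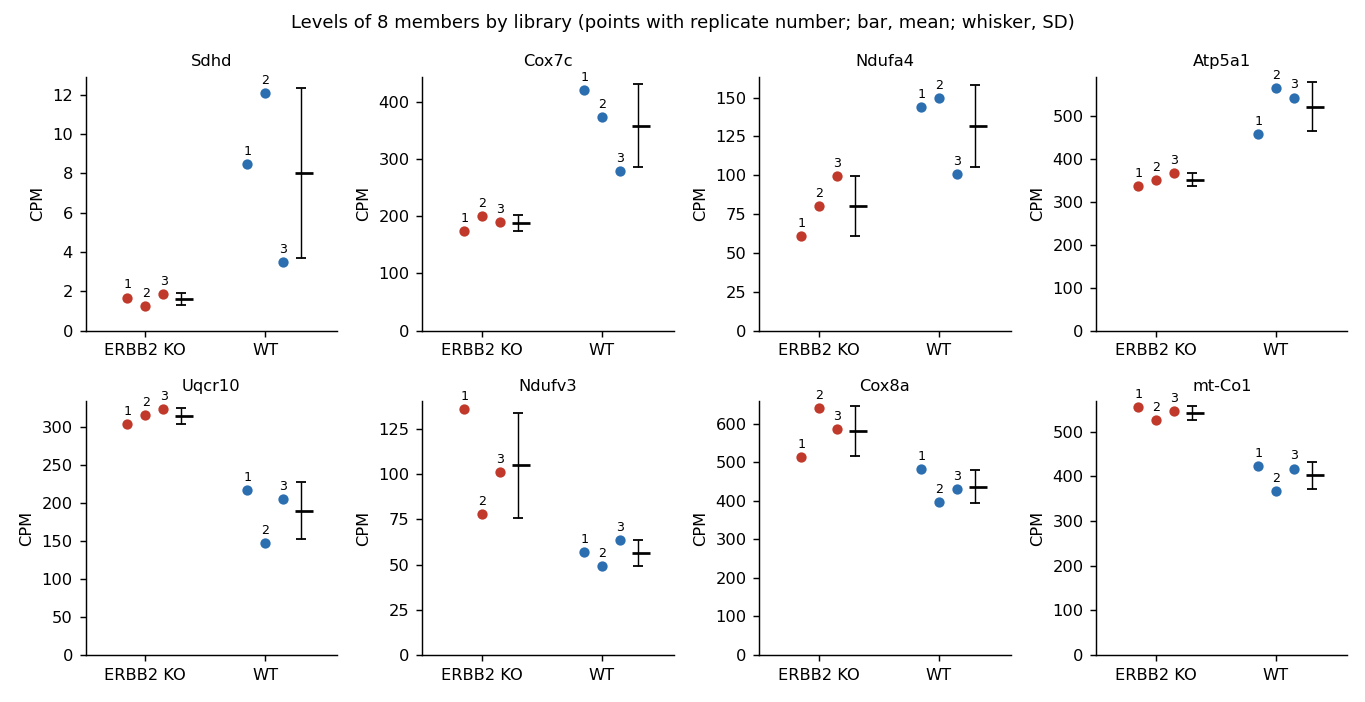
CPM of 8 members in each library, 1 point per library marked with its replicate number (red, ERBB2 KO; blue, WT), with the mean and SD to the right of each group (n = 3). The upper 4 genes (Sdhd, Cox7c, Ndufa4, Atp5a1) have each ERBB2 KO point below each WT point, and the lower 4 (Uqcr10, Ndufv3, Cox8a, mt-Co1) have each ERBB2 KO point above. These 8 are among the members without overlap of the groups (22.4%, beside 19.4% of all genes tested), and none passed after adjustment.

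Complex V had its extremes in Atp5a1, with ERBB2 KO below WT, and Atp5h, with ERBB2 KO above WT. Atp5a1, the alpha subunit of the head, was at 337, 351 and 368 CPM in ERBB2 KO, against 459, 566 and 544 CPM in WT, with the ERBB2 KO libraries close together and wholly below WT (means 352 ± 15.5 CPM in ERBB2 KO and 523 ± 56.5 CPM in WT, SD, n = 3 each, log2 difference -0.57 ± 0.15, limma adjusted p = 0.326). Its catalytic partner Atp5b, the beta subunit, was at 620.2, 506 and 508 CPM in ERBB2 KO, against 647, 496 and 503 CPM in WT, with overlap (log2 difference -0.0055, 95% interval -0.42 to 0.41). Atp5c1, the gamma subunit of the rotor, was also without overlap and lower in ERBB2 KO, at 193, 223 and 174 CPM in ERBB2 KO and 224, 250.2 and 225 CPM in WT (log2 difference -0.25 ± 0.16, adjusted p = 0.514). The small rotor subunit Atp5d was at 194, 147 and 131 CPM in ERBB2 KO and 186, 134 and 111 CPM in WT. Its neighbour Atp5e was at 86.4, 119 and 92.6 CPM in ERBB2 KO and 134, 76.5 and 63.5 CPM in WT, and both overlapped between the groups. Of the peripheral stalk, Atp5h was at 510.4, 578 and 473 CPM in ERBB2 KO, against 446, 232 and 391 CPM in WT, wholly above WT (log2 difference 0.59 ± 0.26, adjusted p = 0.383). Atp5o, which joins the stalk to the head, was at 283, 264 and 265 CPM in ERBB2 KO and 226, 214 and 268 CPM in WT, with overlap.

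The ring that turns in the membrane is made of 1 mature protein encoded by 3 genes, and these were not alike. Atp5g1 was at 239, 284 and 227 CPM in ERBB2 KO, against 217, 133 and 216 CPM in WT and the groups did not overlap, with ERBB2 KO 3 and WT 1 almost level (log2 difference 0.43 ± 0.23, SE, limma adjusted p = 0.443). Atp5g2 was at 328, 519.9 and 307 CPM in ERBB2 KO and 409.7, 255 and 251 CPM in WT, with overlap. Atp5g3 was at 1106, 994 and 1125 CPM in ERBB2 KO and 937, 1058 and 1054 CPM in WT (log2 difference 0.081, 95% interval -0.27 to 0.43). The 5 head and rotor genes had a median log2 difference of -0.0055 and the 10 stalk and membrane genes one of 0.059. The table also holds 3 pseudogenes of complex V genes and 1 of Uqcrh, at no more than 2.09 CPM, and how reads that match such copies were divided is not given in the sources used here.

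Library pattern and genotype crossed for the members on the X chromosome, which were picked out after their values were seen. Ndufa1, an accessory subunit of the complex I membrane arm, was at 107, 50.7 and 50.7 CPM in ERBB2 KO, against 84.7, 125 and 116 CPM in WT (log2 difference -0.71 ± 0.33, limma adjusted p = 0.401). Ndufb11, in the same arm, was at 143, 83.1 and 73.5 CPM in ERBB2 KO, against 91.1, 131 and 149.8 CPM in WT (log2 difference -0.34 ± 0.30, adjusted p = 0.627). For both, WT 2 and WT 3, the libraries with Xist at 208 and 178 CPM, lay above WT 1, ERBB2 KO 2 and ERBB2 KO 3, while ERBB2 KO 1, with Xist at 0.112 CPM, did not follow this order. Cox7b of complex IV was at 414, 212 and 399 CPM in ERBB2 KO, against 249, 397 and 354 CPM in WT, with ERBB2 KO 1 and ERBB2 KO 3 as high as WT 2. The part of Xist in these levels was not tested.

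**Figure D5:**
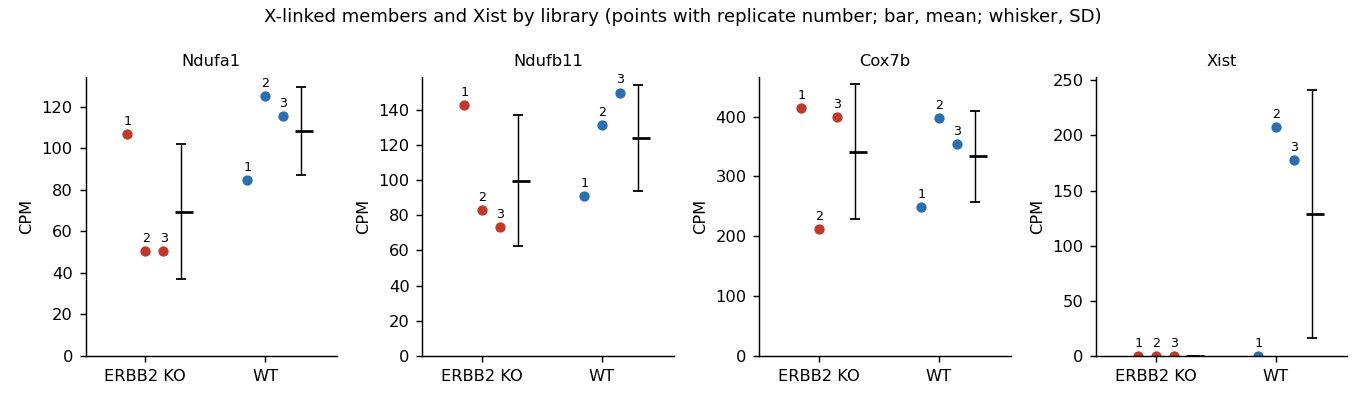
CPM of the X-linked members Ndufa1, Ndufb11 and Cox7b and of Xist in each library, 1 point per library marked with its replicate number, with the mean and SD to the right of each group (n = 3). Xist is at 208 and 178 CPM in WT 2 and WT 3 and at no more than 0.112 CPM in the other 4 libraries, and Ndufa1 and Ndufb11 are lowest in ERBB2 KO 2 and ERBB2 KO 3.

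Genes that serve the chain were read from lists beside the members. The counts are of genes with an unadjusted p under 0.05 by limma, higher or lower by their mean in ERBB2 KO, and 0 genes of these lists passed after adjustment. Over all genes tested, 5.96% were higher and 7.27% lower in this sense, 13.2% together, and the lists are short. In electron entry and cytochrome c, 2 of 14 genes were lower and 0 higher (14.3% together). Etfa, which feeds electrons from fatty acid oxidation, was at 27.1, 17.9 and 13.9 CPM in ERBB2 KO and 32.5, 40.4 and 31.5 CPM in WT (log2 difference -0.84). Coq2, of ubiquinone synthesis, was at 3.58, 7.12 and 8.10 CPM in ERBB2 KO and 8.38, 19.9 and 23.0 CPM in WT (log2 difference -1.26). Coq6, from the same pathway, was at 12.3, 12.6 and 11.0 CPM in ERBB2 KO and 9.56, 7.57 and 5.81 CPM in WT, with each ERBB2 KO library above each WT library (log2 difference 0.60, limma adjusted p = 0.378).

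Among 30 assembly genes of complexes III, IV and V, 3 were higher and 2 lower (16.7% together, beside 13.2% of all genes tested). Cox17, the copper chaperone of complex IV, was at 69.4, 74.9 and 65.4 CPM in ERBB2 KO, against 109, 131 and 114 CPM in WT (log2 difference -0.74 ± 0.16, limma adjusted p = 0.321). Coa6, which works on the same copper site, was at 4.48, 6.61 and 5.09 CPM in ERBB2 KO, against 13.7, 10.6 and 9.73 CPM in WT (log2 difference -0.95 ± 0.27). Both had each ERBB2 KO library below each WT library. Uqcc3, an assembly factor of complex III, was at 28.2, 47.9 and 41.0 CPM in ERBB2 KO and 30.6, 18.4 and 18.4 CPM in WT, with overlap (log2 difference 0.78).

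Among 14 genes of mitochondrial DNA upkeep and transcription, 1 was higher and 2 were lower (21.4% together, beside 13.2%). Ssbp1, which coats single-stranded mitochondrial DNA, had the smallest unadjusted p of these lists, at 33.6, 48.3 and 35.5 CPM in ERBB2 KO, against 101, 119 and 86.5 CPM in WT (means 39.2 ± 8.01 CPM in ERBB2 KO and 102 ± 16.1 CPM in WT, SD, n = 3 each, log2 difference -1.37 ± 0.22, limma adjusted p = 0.267). Tefm, the elongation factor, was at 2.58, 4.16 and 3.53 CPM in ERBB2 KO and 6.46, 6.69 and 5.51 CPM in WT. Polg2, the accessory subunit of the DNA polymerase, was at 6.38, 7.97 and 9.56 CPM in ERBB2 KO and 6.37, 2.98 and 3.32 CPM in WT. The polymerase that makes the transcripts, Polrmt, was at 16.6, 11.8 and 10.8 CPM in ERBB2 KO and 12.1, 7.17 and 7.85 CPM in WT. Tfam, which packs the DNA and starts transcription, was at 59.1, 45.5 and 45.1 CPM in ERBB2 KO and 60.8, 44.1 and 40.5 CPM in WT (log2 difference 0.052, 95% interval -0.48 to 0.58). Of 18 genes of mitochondrial RNA processing, 1 was higher and 2 were lower (16.7% together, beside 13.2%). Hsd17b10 and Trmt10c are subunits of the same enzyme that cuts and methylates tRNAs, and stood on opposite sides. Hsd17b10 was at 145, 91.1 and 121 CPM in ERBB2 KO and 76.6, 73.5 and 76.1 CPM in WT, and Trmt10c at 7.84, 9.67 and 13.0 CPM in ERBB2 KO and 18.0, 20.5 and 16.4 CPM in WT. Mtpap, which adds poly(A) tails, was at 11.5, 14.3 and 13.4 CPM in ERBB2 KO and 16.7, 22.1 and 20.5 CPM in WT. Lrpprc, which stabilises the transcripts, was at 277, 368 and 326 CPM in ERBB2 KO and 300.4, 363 and 389.6 CPM in WT (log2 difference -0.12, 95% interval -0.55 to 0.31).

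None of the 10 nuclear regulators tested reached an unadjusted p under 0.05 by limma, beside 13.2% of all genes tested. All 10 had a negative log2 difference, between -0.73 and -0.026, beside 6274 negative of all 11803 genes tested. In ERBB2 KO 2 and 3 against WT 1 the sign turned for Nrf1 (0.018) and Gabpa (0.18). Ppargc1a, the coactivator of mitochondrial biogenesis, was at 4.48, 0.170 and 0.831 CPM in ERBB2 KO and 2.55, 1.77 and 4.45 CPM in WT (log2 difference -0.73). The transcription factor Nrf1 was at 21.2, 27.6 and 26.5 CPM in ERBB2 KO and 26.7, 33.8 and 25.7 CPM in WT (log2 difference -0.19), and Gabpa at 14.0, 15.4 and 14.2 CPM in ERBB2 KO and 12.9, 23.3 and 17.4 CPM in WT (log2 difference -0.24). Esrra, a nuclear receptor that acts with Ppargc1a, was at 5.94, 8.90 and 8.10 CPM in ERBB2 KO and 9.10, 13.1 and 8.22 CPM in WT (log2 difference -0.36). Myc was at 6.27, 10.8 and 8.72 CPM in ERBB2 KO and 21.5, 16.8 and 8.30 CPM in WT (log2 difference -0.72). Of 13 genes of the citric acid cycle, which supplies the NADH and succinate, 1 was higher and 3 were lower (30.8% together, beside 13.2%). Idh3a, a subunit of the NAD-linked isocitrate dehydrogenase, was at 56.8, 54.4 and 50.5 CPM in ERBB2 KO, against 96.8, 174 and 147 CPM in WT, wholly below (log2 difference -1.31 ± 0.24, adjusted p = 0.321). Cs, the citrate synthase, was at 98.9, 103 and 102 CPM in ERBB2 KO and 150.1, 131 and 123 CPM in WT. Ogdh, of the oxoglutarate dehydrogenase, was above WT, at 87.8, 82.3 and 79.8 CPM in ERBB2 KO and 63.3, 54.9 and 60.4 CPM in WT.

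Of 11 carriers of the inner membrane, 1 was higher and 1 lower (18.2% together, beside 13.2% of all genes tested). Slc25a5, which exchanges ADP for the ATP of complex V, was at 185, 188 and 146 CPM in ERBB2 KO, against 394, 610.5 and 396 CPM in WT, wholly below WT (log2 difference -1.40 ± 0.22, limma adjusted p = 0.267). Slc25a11, which carries oxoglutarate, was at 86.0, 73.5 and 74.6 CPM in ERBB2 KO and 53.6, 60.6 and 54.0 CPM in WT. Slc25a13, the aspartate and glutamate carrier, was at 34.8, 0 and 0 CPM in ERBB2 KO, against 10.2, 58.6 and 50.8 CPM in WT, which in ERBB2 KO 2 and ERBB2 KO 3 is 0 reads, and 3 reads would be 0.254 and 0.312 CPM there. Of the 4 genes tested from the low oxygen list 3 were higher and 0 lower. Cox4i2 and Ndufa4l2 of that list have no row under these symbols in the deposited data. Lonp1, a matrix protease, was at 162, 175 and 155 CPM in ERBB2 KO and 122, 91.6 and 119.8 CPM in WT. Bnip3, which marks mitochondria for removal, was at 19.0, 7.04 and 7.17 CPM in ERBB2 KO and 5.01, 2.82 and 3.70 CPM in WT. Pdk1, which holds back pyruvate oxidation, was at 34.2, 19.7 and 31.1 CPM in ERBB2 KO and 23.3, 4.59 and 5.36 CPM in WT. The share of 3 in 4 stands beside 5.96% of all genes tested with the higher mean in ERBB2 KO, the list is short, and none of the 3 passed after adjustment (adjusted p between 0.347 and 0.350).

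Because WT 1 and ERBB2 KO 1 stood apart from the other libraries of their groups, the fit was repeated without them, a choice made after the data were seen. Keeping the libraries most alike narrows the spread within each group, so the counts called in this fit do not test genotype. The kept groups also differ in Xist, which was expressed in WT 2 and 3 and hardly or not in ERBB2 KO 2 and 3. Genotype and this difference cannot be told apart here. ERBB2 KO 2 and 3 against WT 2 and 3 gave 1956 genes at an adjusted p under 0.05 (16.6% of the genes tested) and 19 of 98 members (19.4%), a share near the background, with 11 higher and 8 lower in ERBB2 KO. Higher were Uqcr10, Cox6c, Cox8a, Ndufa7, Ndufa10, Ndufb9, Ndufs8, mt-Nd1, mt-Nd4, mt-Co2 and mt-Atp6. Lower were Sdhb, Cox5a, Cox7c, Atp5a1, Atp5l, Ndufa12 and the X-linked Ndufa1 and Ndufb11. In ERBB2 KO 2 and 3 against WT 1, where the lone WT library was assumed to vary like the ERBB2 KO pair, 0 genes and 0 members passed by limma, with 1085 genes and 6 members at an unadjusted p under 0.05. Leaving out WT 1 alone gave 146 genes and leaving out ERBB2 KO 1 alone 30 genes, with 0 members among them in either fit. The number of members called thus lay between 0 and 19, depending on the libraries that entered.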

How the data were processed

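The authors deposited 1 table of log2 CPM with a small prior added, for 3 ERBB2 KO and 3 WT libraries. Per the labels the preparation was TruSeq total RNA, whereas the methods describe Lexogen QuantSeq of 3' ends, which was not settled. A 3' preparation would weigh transcripts by their ends, and antisense or overlapping reads depend on strand. The submitters' processing notes name mm10 (GRCm38), and counter and annotation are not given in the sources used here. BWA and GRCm39 are named under RNA sequencing in the methods, in a passage on calling mutations, and whether this table was made from that alignment is not stated.

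For analysis, the deposited log2 values were taken as exponents of 2 and freed of their common floor, 0.179 CPM, and 100% of the values were whole multiples of 1 read within 0.1 of a step. Rows with symbols turned into dates (14) stayed in the totals but were not tested. The 11803 genes that reached 1 CPM in 3 or more libraries were tested on log2(CPM + 1), which understates changes of weakly expressed genes, with limma 3.58.1 in R 4.3.3 (lmFit, two-sided, eBayes with trend, no covariate beside group, Benjamini-Hochberg, threshold 0.05). An exact permutation test of 3 against 3 cannot give a p below 0.1. Sums, shares and medians carry no test. The fit was also run on simulated independent libraries, which lack the likeness across groups seen here. Nothing above rests on that run.

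Named are all mitochondrially encoded members, Sdha to Sdhd, up to 4 members per nuclear group and up to 3 genes per list with the smallest unadjusted p, the isoform pairs and 6 regulators. Other members are named where the groups did not overlap or where another library set called them, and these, with Xist, the X-linked members and the steadiest member, were chosen after their values were seen. The values of 1 gene that this rule would name are not reported here. Members and lists were chosen with earlier results of these data known. Replicate numbers did not pair the libraries (correlation of deviations of same-numbered libraries -0.22, -0.16 and -0.05). No pair of libraries agreed within sampling noise (chi-square per degree of freedom at least 27.1). Alternatives were another pseudocount, filter, scaling, library total or test, a replicate block and leaving out libraries. Coordinates, counted from 1, and promoter sequences are from RefSeq (GRCm38.p6), where all 104 members were found, 2 of them under other symbols.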

Additional observations from a re-analysis of the deposited data

How the results depend on the processing

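By limma, 0 members were called under another pseudocount, filter, scaling, library total, limma voom, a replicate block or with any 1 library left out. The block left 8 members at an unadjusted p under 0.05, beside 12 without it, and same-numbered libraries did not deviate together. Leaving out 1 library gave 0 to 146 genes called (146 without WT 1, when Idh3a and Pdk1 also passed, and 30 without ERBB2 KO 1) and 7 to 23 members at an unadjusted p under 0.05. It gave medians of 0.0034 to 0.099 for nuclear subunits, 0.083 to 0.42 for mitochondrially encoded subunits, and -0.0076 to 0.16, -0.20 to -0.065, -0.078 to 0.039, -0.33 to -0.055 and -0.037 to 0.060 for nuclear complexes I to V. It gave ratios of read shares of 1.09 to 1.38 (mitochondrially encoded) and 1.00 to 1.03 (nuclear).

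ERBB2 KO 2 and 3 against WT 2 and 3 was chosen after the data were seen, and these groups differ in Xist as well as in genotype. This set gave 1956 genes and 19 members called, and 44 members at an unadjusted p under 0.05 (44.9%, beside 35.0% of all genes). Its medians were 0.23, -0.30, -0.41 and 0.15 for nuclear complexes I, II, IV and V. Against WT 1 alone there were 6 such members, with medians of -0.016 for nuclear subunits, 0.060 for complex III and -0.037 for complex V. The median of complex II was 0.16 with a filter of 5 CPM, which removed Sdhd, and that of complex III 0.051 after quantile normalization.

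Signs turned under some library sets, also for larger differences such as that of Cox6a2 (-0.81 over all libraries). Against WT 2 and 3 this held for mt-Atp8 (0.28), mt-Nd5 (0.11) and mt-Nd4l (-0.40). Against WT 1 it held for mt-Atp8 (0.036), mt-Nd5 (0.17), Sdhc (-0.017), Ndufs7 (-0.33), Ndufaf4 (0.12), Atp5e (-0.34), Atp5d (-0.42), Atp5g2 (-0.037), Cox6a2 (0.75), Cox7b (0.22), Tfam (-0.42), Polrmt (-0.094), Nrf1 (0.018), Gabpa (0.18) and Lrpprc (0.20). Cox7b was at 0.037 under either other scaling and at 0.0082 with totals free of mitochondrial genes and AY036118, and mt-Nd5 at 0.0080 after quantile normalization. With 1 library left out the ranges crossed 0 for mt-Nd2 (-0.0041 to 0.52), mt-Atp8 (-0.24 to 0.20), mt-Nd5 (-0.13 to 0.13), mt-Nd4l (-0.085 to 0.77), Sdhc (-0.0033 to 0.39), Ndufs7 (-0.076 to 0.37), Atp5e (-0.037 to 0.49), Atp5d (-0.021 to 0.34), Cox6a1 (-0.048 to 0.096), Cox7b (-0.20 to 0.31), Tfam (-0.075 to 0.22) and Erbb2 (-0.54 to 0.35). The causes were not tested. Depth limits the weakly expressed Sdhd, Ndufaf1 and Ndufaf3. Few reads (67 to 271) also limit mt-Nd4l, though mt-Nd4 in the same transcript had 30594 to 80424 reads.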
